A study of Pan troglodytes with 38 samples.

Results

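Voltage-gated and potassium channels carry the currents that shape the cardiac action potential, and their genes were read here across post-mortem hearts of 38 chimpanzees. Members were chosen by symbol alone: genes whose symbol starts with KCN, with HCN or SCN and a digit, or with CACNA, CACNB or CACNG. The gene count table holds 135 such genes among 31373 annotated chimpanzee genes. The animals were captive chimpanzees of 5 centers, 22 females and 16 males, and some were relatives. According to the paper, some of its chimpanzees had been exposed to hepatitis B or C virus in laboratories. This exposure was not a term in any comparison here. RNA of 21 animals (12 females and 9 males) was extracted in 2018, called later RNA here, and RNA of 17 animals (10 females and 7 males) in an earlier year, called earlier RNA. The earlier RNA had been sequenced and published before and was sequenced anew, whereas later RNA was taken as new, so extraction year and origin of the library cannot be told apart. Age at death was known for 34 animals, with a median of 32 years and a range of 10 to 57 years. Sex, age and extraction year came from the sample table of the published study and not from the labels, which give the tissue as heart and name no chamber. Each library was polyadenylated RNA of 1 piece of tissue from 1 animal, so the spread between animals includes differences in where the tissue was taken.

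In a working cardiomyocyte, voltage-gated sodium channels start the action potential and an L-type calcium channel built on CACNA1C holds the plateau and triggers contraction. Transient outward (KCND), delayed rectifier (KCNQ1 and KCNH2), inward rectifier (KCNJ) and tandem-pore (KCNK) potassium channels return the membrane to rest, while HCN channels and T-type calcium channels (CACNA1G and CACNA1H) support pacemaking. Atrial and ventricular cells use different sets, and vessels, nerves and leukocytes have channels of their own. The pore-forming subunits are joined by auxiliary subunits (SCN beta, CACNB, CACNA2D, KCNE and KCNIP genes) that set trafficking and gating.

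Levels are given in CPM, the count of a gene scaled by the animal's total on exons shared by human and chimpanzee. Those totals were between 14408012 and 81603350 with a median of 41226040. A gene at 6 CPM rests on about 86.4 counts at the lowest total, a counting error of 10.8%, and on 247 counts at the median total, an error of 6.36%. A count of 0 allows up to 3 counts, which is 0.208 CPM at the lowest total and covers counting error only. Some animals stood apart. In 549 (earlier RNA), summed atrial cardiomyocyte markers reached 46869 CPM against a median of 473 CPM, and ventricular markers were at 1029 CPM against 57087 CPM. In 537 and Little_R (both later RNA), general cardiomyocyte markers were at 12263 and 7312 CPM against a median of 31549 CPM, fibroblast markers were at 7283 and 9116 CPM against 1292 CPM, and mitochondrial genes took 60.1% and 48.3% of gene counts against a median of 30.4%. The lowest TNNT2 (cardiac troponin T) level was 3682 CPM, so cardiomyocyte RNA was present in every library. In bulk tissue, fewer cells of a type and less RNA per cell cannot be told apart. Results that rest on these animals are given with and without them.

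Of the 135 channel genes, 63 reached 6 CPM in at least 1 animal (46.7%), against 41.8% of all annotated genes. Medians were at or above 6 CPM for 29 genes, 8 genes had a median over 50 CPM, and 10 genes were at or above 6 CPM in all animals. At the other end, 78 genes had a median under 1 CPM, and CACNG3 and KCNA10 had no count in any animal. The filter was passed in a single animal by 8 genes, of which CACNA2D3, KCNF1 and KCNN1 passed it in 549 only. The genes nearest to the filter were SCN9A, with a highest level of 5.595 CPM just outside it, and KCNK7, with 7.08 CPM just inside it. The KCNH2 gene, the rapid delayed rectifier, and KCNA2 and KCNA4 were not analysed here.

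**Figure D1:**
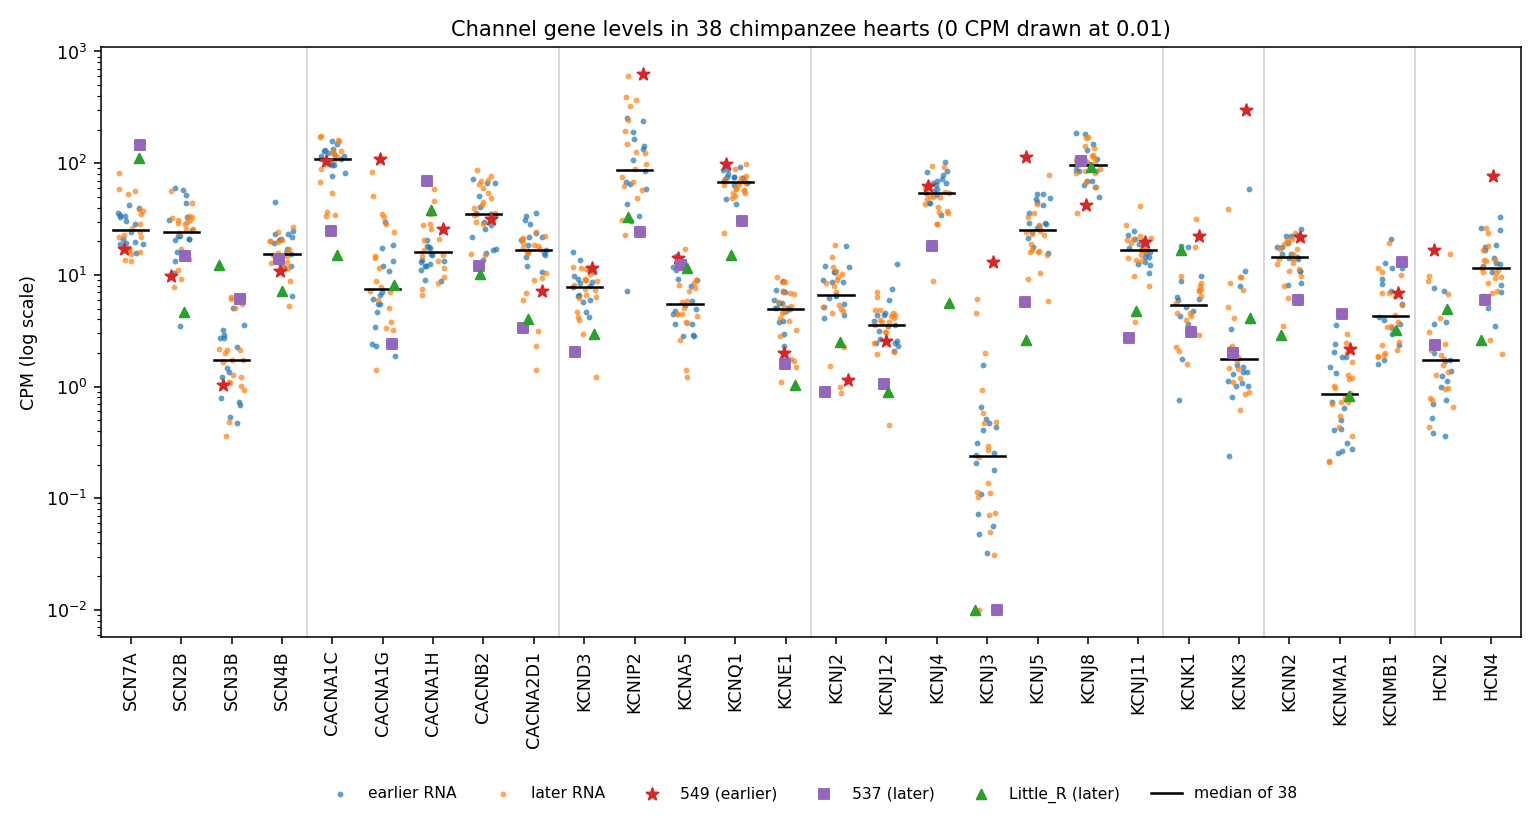
Level of 28 channel genes (x axis, ordered by family) in CPM on a log scale (y axis). Each point is 1 of 38 animals, coloured by year of RNA extraction, the black line is the median, and 549, 537 and Little_R have their own symbols. CACNA1C has the highest median of the genes drawn (109 CPM), and 549 lies at 302 CPM for KCNK3 against a median of 1.77 CPM.

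Among sodium channel pore subunits, 4 of 10 reached 6 CPM. SCN7A, an atypical channel of this family known from glia and other non-excitable cells, ranged from 13.4 to 147 CPM with a median of 25.4 CPM. Its highest levels were in 537 and Little_R (111 CPM). SCN3A, better known from neurons, had a median of 4.99 CPM and SCN4A, the skeletal muscle channel, a median of 0.848 CPM.

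All 4 sodium channel beta subunits, which modulate gating and cell adhesion, reached 6 CPM. SCN2B ranged from 3.46 to 60.5 CPM with a median of 24.3 CPM, and SCN4B from 5.30 to 44.5 CPM with a median of 15.50 CPM. SCN3B had a median of 1.74 CPM and a highest level of 12.3 CPM in Little_R.

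Of the 10 calcium channel pore subunits, 4 reached 6 CPM. CACNA1C, the L-type channel of ventricular muscle, ranged from 15.1 to 176 CPM with a median of 109 CPM. Little_R was lowest, followed by 537 at 24.7 CPM. CACNA1D, the L-type isoform known from atrium and sinus node, stayed at a median of 0.198 CPM and had its highest level, 5.25 CPM, in 549. T-type channels differed between animals. CACNA1G ranged from 1.41 to 108 CPM with a median of 7.50 CPM, highest in 549 and then in 4X0339 (84.2 CPM). CACNA1H ranged from 6.57 to 68.9 CPM with a median of 16.1 CPM, highest in 537. Auxiliary calcium channel subunits included CACNB2, the main cardiac beta subunit, with a range of 10.1 to 87.0 CPM and a median of 35.1 CPM. CACNA2D1, the main cardiac alpha-2-delta subunit, ranged from 1.41 to 35.5 CPM with a median of 16.7 CPM. Of 16 auxiliary calcium channel genes, 8 reached 6 CPM.

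Voltage-gated potassium pore subunits form the largest family, and 9 of 37 reached 6 CPM. KCNQ1, the slow delayed rectifier, ranged from 15.1 to 99.3 CPM with a median of 68.3 CPM and was lowest in Little_R. KCND3, a pore subunit of the transient outward current, ranged from 1.21 to 15.9 CPM with a median of 7.83 CPM, whereas KCND2, the other such subunit, had a highest level of 0.583 CPM. KCNA5, the ultrarapid delayed rectifier of the atrium, had a median of 5.51 CPM and was highest in 295 at 16.96 CPM. Auxiliary subunits were read alongside, with 7 of 13 at 6 CPM or more. KCNE1, the partner of KCNQ1, ranged from 1.04 to 9.50 CPM with a median of 5.005 CPM. KCNAB2, a cytoplasmic beta subunit, ranged from 17.4 to 174 CPM with a median of 91.5 CPM.

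KCNIP2 encodes a calcium-binding subunit needed for the transient outward current and is known for a gradient across the ventricular wall in large mammals. It ranged from 7.13 CPM in 4x0519 to 627 CPM in 549, with a median of 86.7 CPM, an 87.9-fold range. Levels were over 100 CPM in 17 animals and under 30 CPM in 5. The high end did not consist of 549 alone: 4X0339 was at 597 CPM, and both years of extraction held animals at either end. Tissue position within the heart was not known, and its part in this spread was not tested. An antisense transcript is known at this gene in human, and its reads cannot be told apart from those of KCNIP2 if the counting did not use strand.

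Inward rectifiers reached 6 CPM for 9 of 14 genes. KCNJ8, a pore subunit of ATP-sensitive channels known from pericytes and vascular smooth muscle, ranged from 35.99 to 186 CPM with a median of 97.2 CPM. KCNJ11, the pore subunit of the same channel type in cardiomyocytes, ranged from 2.74 to 41.5 CPM with a median of 16.7 CPM, and it was lowest in 537. KCNJ2, the classical inward rectifier that sets the resting potential, ranged from 0.881 to 18.6 CPM with a median of 6.59 CPM. For its relatives, the median was 54.1 CPM for KCNJ4 (range 5.55 to 103 CPM) and 3.55 CPM for KCNJ12 (range 0.454 to 12.5 CPM), whose reads may be shared with near-identical copies. KCNJ5 and KCNJ3 together form the acetylcholine-activated channel of atrium and sinus node. KCNJ5 ranged from 2.64 to 115 CPM with a median of 25.2 CPM, and KCNJ3 from 0 to 13.2 CPM with a median of 0.240 CPM. Both were highest in 549.

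Tandem-pore potassium channels reached 6 CPM for 6 of 15 genes. KCNK3, an acid-sensitive background channel enriched in atrium, was at 0.241 to 302 CPM with a median of 1.77 CPM. It was over 20 CPM in 3 animals, 549, 570 (59.0 CPM) and 495 (38.8 CPM), the last 2 without the marker profile of 549. KCNK1, a related background channel, ranged from 0.755 to 31.8 CPM with a median of 5.42 CPM, highest in 495. Calcium- and sodium-activated channels reached 6 CPM for 9 of 12 genes. KCNN2, a small-conductance channel, ranged from 2.92 to 25.9 CPM with a median of 14.4 CPM. KCNN3, its relative, had a median of 0.896 CPM and passed the filter in Little_R alone. KCNMA1, the large-conductance channel of smooth muscle, had a median of 0.853 CPM, and KCNMB1, its smooth muscle beta subunit, a median of 4.28 CPM with a range of 1.605 to 21.1 CPM. Pacemaker channels reached 6 CPM for 3 of 4 genes. HCN4, the main sinus node isoform, ranged from 1.97 to 76.1 CPM with a median of 11.5 CPM and was highest in 549. The second highest animal, 4x0025, was at 33.2 CPM. HCN2 had a median of 1.72 CPM.

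Among the other channel genes that passed the filter, KCNAB1, a beta subunit of voltage-gated potassium channels, ranged from 3.73 to 23.7 CPM with a median of 8.96 CPM. KCNIP3, a calcium-binding relative of KCNIP2, ranged from 2.95 to 60.6 CPM with a median of 6.17 CPM, and 537 lay well above the next animals, 495 (29.1 CPM) and 558 (27.5 CPM). KCNC4, a voltage-gated potassium pore subunit, ranged from 2.45 to 31.2 CPM with a median of 8.51 CPM and was also highest in 537. Among calcium channel auxiliary genes, CACNB3 had a median of 11.03 CPM, CACNA2D4 of 7.62 CPM, CACNB1, the skeletal muscle beta subunit, of 5.54 CPM, and CACNA2D2 of 5.54 CPM. CACNG6, a gamma subunit, had a median of 1.19 CPM and a highest level of 12.8 CPM in 503. The sodium-activated channel KCNT1 ranged from 1.94 to 24.4 CPM with a median of 8.60 CPM, lowest in Little_R. KCNK6 and KCNK13, tandem-pore channels, had medians of 8.44 and 3.34 CPM. KCNK13 spread from 0.0504 CPM in 4X0354 to 12.3 CPM in 724, while KCNK6 stayed between 3.59 and 17.01 CPM. Large-conductance beta subunits KCNMB4 and KCNMB2 had medians of 5.89 and 3.80 CPM. KCNH6, a relative of KCNH2, had a median of 4.46 CPM and ranged from 0.303 to 8.61 CPM.

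Levels of different genes can be compared only per length, which was possible for 17 channel genes matched to the table of orthologous exons. On this scale, counts per kilobase of exon scaled by the same total (RPKM), KCNIP2 had the highest median, 28.7 RPKM (range 2.34 to 207). In Pan_tro_3.0 the exons counted span 103275787 to 103293769 on chromosome 10. KCNQ1 followed with 14.7 RPKM (chromosome 11, 2456844 to 2795576) and KCNJ11 with 13.9 RPKM (chromosome 11, 17217880 to 17221356). KCNIP2 was above KCNQ1 in 32 of 38 animals, whereas KCNQ1 was above KCNJ11 in 19, so the order of the latter pair was not set beyond the spread between animals. KCNAB2 (10.3 RPKM) and CACNA1C (10.1 RPKM) likewise exchanged places, with KCNAB2 higher in 22 animals. CACNB2 (6.57 RPKM) was above KCND3 (6.41 RPKM) in 19 animals. KCNJ5 (4.20 RPKM), CACNA1H (2.74 RPKM) and KCNK1 (1.53 RPKM) came next, and KCNMA1 (0.0605 RPKM) and CACNA1E (0.00440 RPKM), a neuronal calcium channel, were lowest. The length is that of all exons counted, 35231 bases for KCNMA1, and whether the transcripts present hold them all was not tested. Before scaling by length, KCNMA1 had a median of 2.13 CPM on these exons, above KCNT2 (1.56 CPM, 0.220 RPKM). The 2 tables did not always count the same part of a gene. For KCND3 the median on orthologous exons was 6.43 times that in the gene table, for KCNE3, another partner of KCNQ1, 6.30 times and for KCNJ11 2.67 times, and for KCNQ1 it was 0.539 times. A CPM value of these genes in the gene table is thus a level on the annotated chimpanzee model only.

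Variation between animals was then compared with that of other genes at the same level. Overdispersion is the variance of a gene beyond counting noise in a negative binomial model. Dispersion, as used here, is how far its natural logarithm lies above or below a smooth trend on mean level, so that 0 is usual for that level. Dispersion was above 0 for 49 of 63 channel genes, against 44.9% of 13121 genes. The median was 0.55 over the channel genes and -0.12 over all genes. Above 1 were 15 channel genes, against 14.1% of all genes. With standard errors from redrawn sets of animals, 28 channel genes were above 0 by more than 2 standard errors and 1 was below by as much. Standard errors were computed for channel genes only, so no share over all genes can be set beside these counts. All 4 sodium pore subunits, all 4 sodium beta subunits and all 4 calcium pore subunits that passed the filter were above 0, as were 7 of 8 calcium auxiliary genes. Some of these lay near the trend and did not stay above it in each alternative. CACNA1A (0.13 ± 0.49) was at -0.17 without 537 and Little_R, and SCN3A was at -0.09 without 549. The share above 0 was lower in voltage-gated potassium pore subunits (6 of 9) and their auxiliary subunits (4 of 7), a difference that was not tested. Members that passed the filter in 1 high animal had to vary, so these counts describe the genes that passed. Requiring 1 CPM in 19 animals instead gave 49 of 57 above 0, and without 549 the count was 44 of 60.

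**Figure D2:**
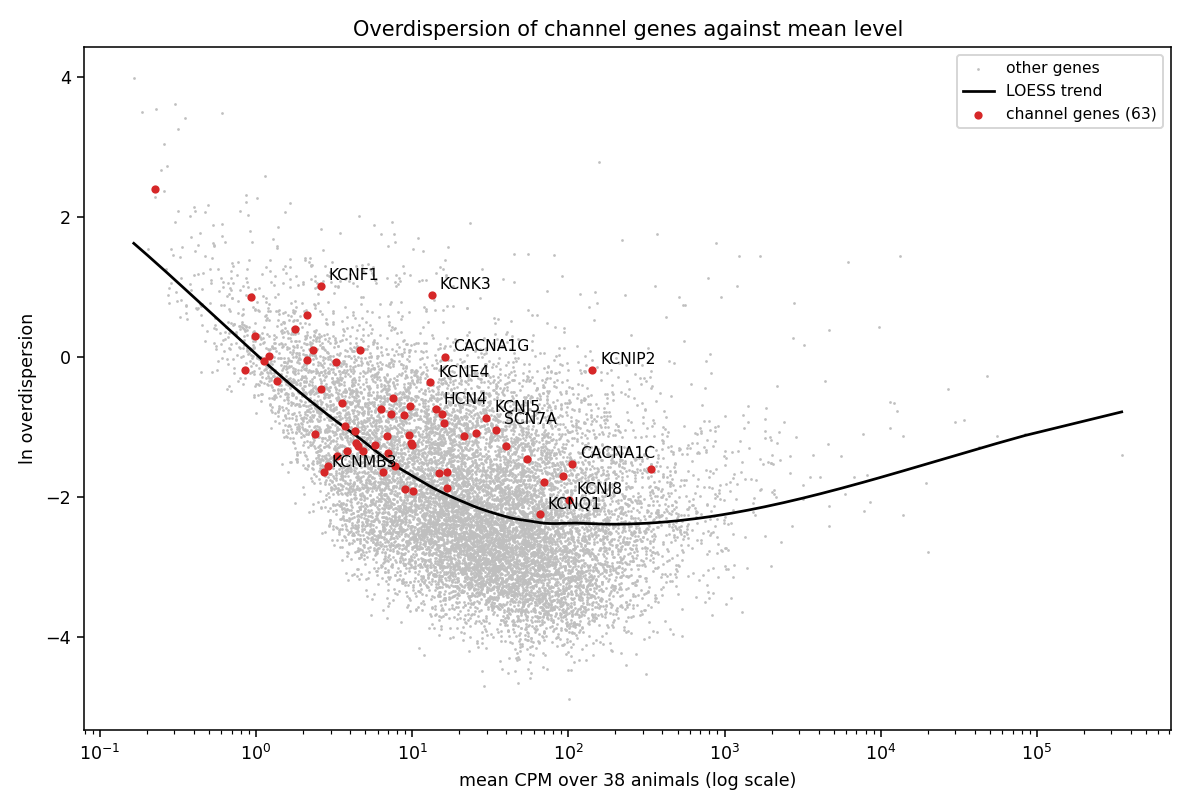
Natural logarithm of overdispersion (y axis) against mean CPM over 38 animals on a log scale (x axis), with 1 point per gene, the 63 channel genes in red and the LOESS trend in black. Channel genes lie above the trend for 49 of 63, and KCNIP2 and KCNK3 stand highest over it.

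The largest dispersion among channel genes was that of KCNK3, 2.74 ± 0.78 (SE, n = 38), rank 73 of 13121. It was 1.62 without 549. KCNIP2 was next with 2.19 ± 0.17 (rank 206), and leaving out any single animal left it at 2.10 or more. CACNA1G had 1.96 ± 0.27, and 1.71 without 549. KCNF1, a silent subunit that modifies other potassium channels, had 1.77 ± 1.95 and rested on 549 alone, since its dispersion against the same trend was -1.87 without that animal. KCNE4, an inhibitory KCNQ1 partner, had 1.49 ± 0.47 and 0.87 without Little_R.

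Other cardiac channels varied less than these. CACNA1C had a dispersion of 0.84 ± 0.35, and without Little_R it was 0.58. This excess was absent on orthologous exons (-0.0023) and within earlier RNA (-0.40). KCNJ5 had 1.32 ± 0.27, SCN7A 1.20 ± 0.33 and HCN4 1.14 ± 0.34, the last at 0.76 without 549. On orthologous exons KCNIP2 and KCNJ5 remained above the trend, at 2.20 and 1.301. KCNQ1 (0.12 ± 0.40), SCN4B (0.09 ± 0.30) and KCND3 (-0.02 ± 0.26) lay within 1 standard error of the trend. KCNQ1 was however at 0.82 on orthologous exons, which count a different part of that gene, and SCN4B at 0.79 within earlier RNA. The lowest values were those of KCNMB3 (-0.87 ± 0.47), a large-conductance beta subunit, KCNRG (-0.73 ± 0.29), a regulator of voltage-gated potassium channels, KCNJ1 (-0.50 ± 0.32), HCN3 (-0.43 ± 0.24) and KCNK7 (-0.38 ± 0.52). Single animals moved some of these, with KCNMB3 at -1.46 without 4X0354, KCNK7 at -0.94 without Little_R and KCNJ1 at -0.78 without 676. With the trend fitted on genes at 1 CPM in 19 animals, KCNMB3 was at -0.32, KCNRG at -0.21, KCNJ1 at -0.03 and HCN3 at 0.18.

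A single animal, 549, held the highest level of 12 of the 63 genes (19.05%), against 3.14% of all genes that passed the filter. This animal was singled out after its values were seen, and CACNA2D3, KCNF1 and KCNN1, which passed the filter through 549 alone, had to be highest in it. Among the 60 channel genes that reached 6 CPM in another animal, 9 were highest in 549 (15%), against 2.78% of all such genes. The 12 were KCNIP2, KCNK3, KCNJ5, CACNA1G, KCNF1, HCN4, CACNA2D3, CACNA2D2, HCN2, KCNJ3, KCNK17 and KCNN1. They include the acetylcholine-activated channel (KCNJ3 and KCNJ5), the acid-sensitive background channel KCNK3, and pacemaker genes (HCN2, HCN4 and CACNA1G). KCNF1 was at 82.4 CPM in 549 and at most 1.29 CPM in the other animals. CACNA2D3, an alpha-2-delta subunit, was at 45.5 CPM against at most 3.68 CPM elsewhere, and KCNN1, a small-conductance channel, at 7.33 CPM against at most 0.490 CPM. For KCNIP2, KCNK17, HCN2 and CACNA2D2, by contrast, at least 1 other animal lay close. In the same animal the atrial genes BMP10 and MYL7 were at 5920 and 12747 CPM, against at most 1.32 and 929 CPM elsewhere, while ventricular IRX4 was at 0.424 CPM against a median of 21.9 CPM. The part of the marker difference in the channel levels was not tested, and with 1 such animal there is no replicate.

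**Figure D3:**
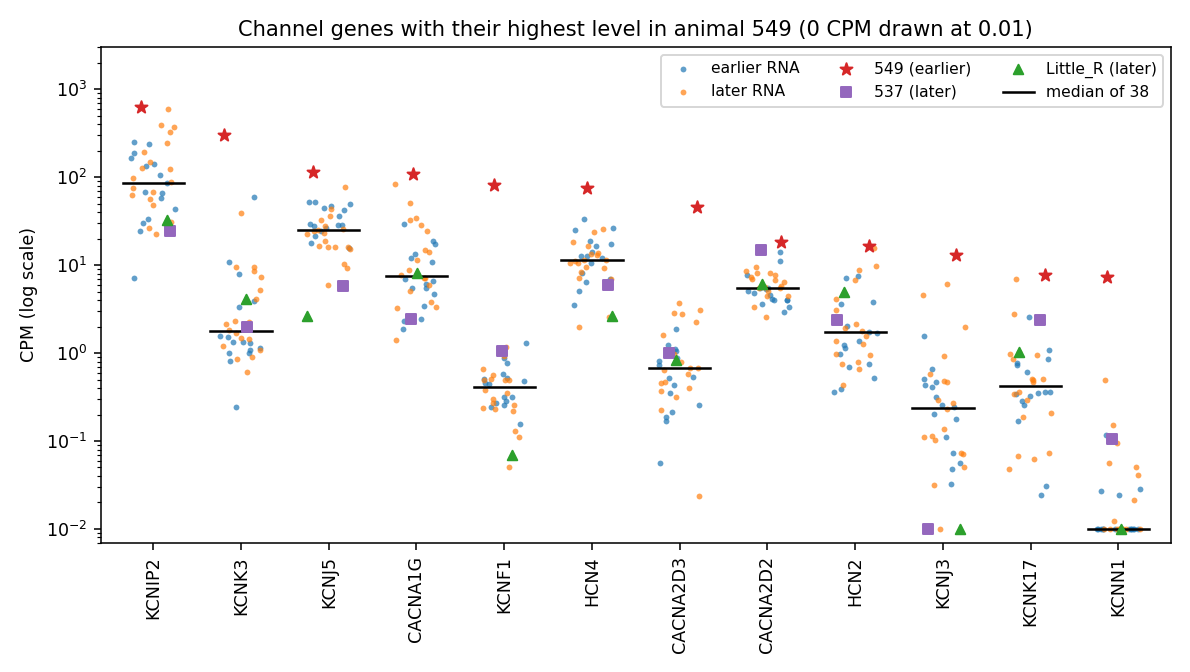
The 12 channel genes whose highest level was in 549 (x axis) with CPM on a log scale (y axis), 1 point per animal and the median as a black line. The red star, 549, is far from all other animals for KCNF1 (82.4 CPM) and CACNA2D3 (45.5 CPM) and close to another animal for KCNIP2.

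Little_R was extreme at both ends, with shares near those of all genes that passed the filter. It held the lowest level of 11 of the 63 genes (17.5%, against 18%) and the highest level of 7 (11.1%, against 12.9%). Among the 11 were CACNA1C, CACNB2, KCNQ1, KCNE1, KCNJ4, KCNJ5, KCNAB2 and KCNN2, and it was highest for KCNE4 (111 CPM) and KCND1 (30.5 CPM), a transient outward pore subunit.

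Later RNA was compared with earlier RNA with sex in the model (edgeR quasi-likelihood test, Benjamini-Hochberg adjusted p over 15790 genes, threshold 0.05). Of 88 channel genes tested, 9 were called, against 16.1% of all genes, so the channel genes were called no more often than genes at large. Among the animals of the Yerkes center alone, 2 of 90 channel genes and 2.08% of all genes were called. Fewer animals were used there, and center was not a term in the comparison of all animals. The parts of center and of the smaller number of animals in this drop cannot be told apart. The 8 higher genes compare with 11.2% called higher among all genes. Most of the 9 were genes at a few CPM or less. KCNAB3, a beta subunit, was at 0.248 to 4.37 CPM (median 1.10) in later RNA and at 0.142 to 1.05 CPM (median 0.355) in earlier RNA. The ranges overlapped, with 11 of 21 animals above every animal with earlier RNA. The log2 fold change was 1.72 ± 0.32 (SE, adjusted p = 0.000244, edgeR).

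KCND1 was at 0.662 to 30.5 CPM (median 4.57) in later RNA and at 0.289 to 4.21 CPM (median 1.48) in earlier RNA. Again 11 animals with later RNA lay above every animal with earlier RNA, and the log2 fold change was 2.07 ± 0.42 (adjusted p = 0.000622, edgeR). HCN3 had medians of 2.79 and 1.26 CPM, and 19 of 21 animals were above the median of the earlier RNA. Its log2 fold change was 1.01 ± 0.20 (adjusted p = 0.000632, edgeR), and on orthologous exons it was 1.02 ± 0.21. Other genes higher in later RNA were the neuronal calcium channel CACNA1A (1.69), SCN4A (2.02), KCNK7 (1.44), the beta subunit CACNB3 (0.81) and the retinal calcium channel CACNA1F (0.99). CACNB3 was the only one of these with medians above 6 CPM, 11.95 and 9.71 CPM, and its highest levels were in 537 (66.5 CPM) and Little_R (46.8 CPM).

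The only lower gene, against 4.82% called lower among all genes, was KCNF1, with a log2 fold change of -2.20 ± 0.74 (adjusted p = 0.0373, edgeR). It was at 0.157 to 82.4 CPM in earlier RNA and at 0.0504 to 1.16 CPM in later RNA, with medians of 0.458 and 0.355 CPM. This call rested on 549, and without it the log2 fold change was -0.26 (adjusted p = 0.622, edgeR). Without 537 and Little_R, 5 of 87 channel genes were called, against 13.4% of all genes. CACNB3, CACNA1F and KCNK7 then no longer passed (adjusted p = 0.0614, 0.0712 and 0.0659, edgeR). CACNA1C, KCNQ1 and KCNJ2 were not called. Beside these results, 4 of 7 atrial markers tested were lower in later RNA (2 of 7 without 549), as were 2 of 6 leukocyte markers, 1 of 4 pericyte and 1 of 2 adipocyte markers were higher, and none of the 5 general and 5 ventricular cardiomyocyte markers was called. The tested conduction system (4), smooth muscle (5), endothelial (4), fibroblast (4) and Schwann cell (4) markers had no call either, but without 549 1 conduction system and 2 Schwann cell markers were higher. The part of these differences in the channel results was not tested. The RNA integrity number (RIN) had medians of 6.2 in the earlier and 5.4 in the later RNA. With RIN in the model, 10 of 93 channel genes were called, against 15.1% of all genes.

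**Figure D4:**
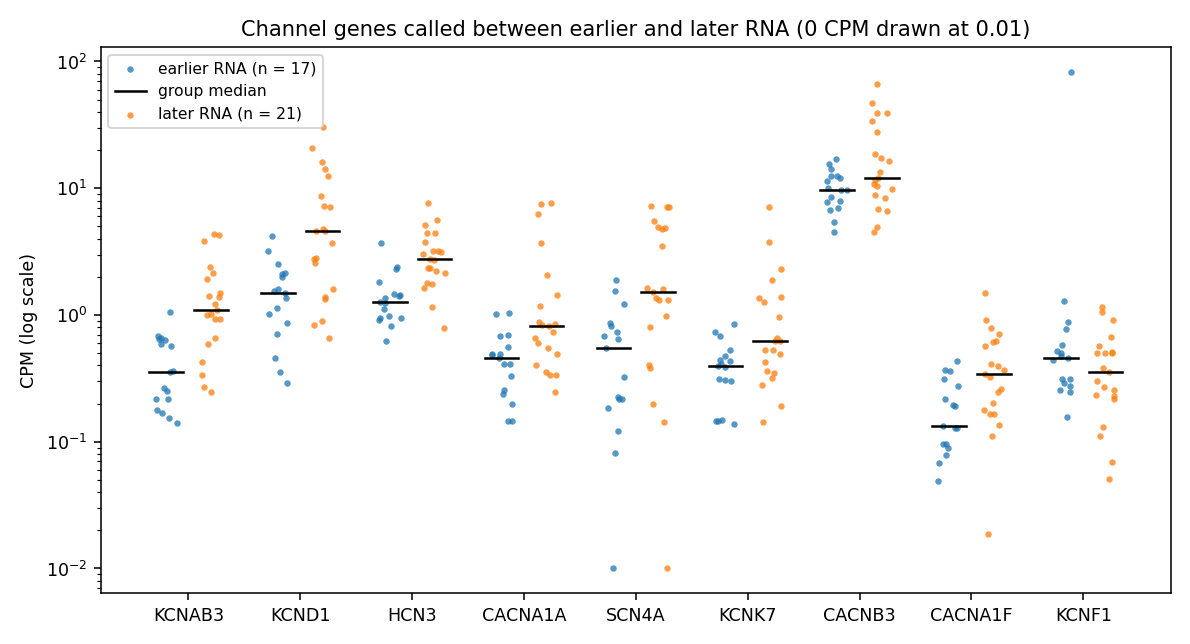
CPM on a log scale (y axis) of the 9 channel genes called between extraction years (x axis), 1 point per animal in blue for earlier RNA (n = 17) and orange for later RNA (n = 21), with group medians as black lines. The groups overlap for every gene, and the lower level of KCNF1 rests on 1 animal at 82.4 CPM.

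Males and females were compared with extraction year in the model. Of 88 channel genes, 2 were called, CACNA2D3 and KCNJ3, against 0.215% of 15790 genes, and both were higher in males, against 0.158% of all genes. CACNA2D3 was at 0.216 to 45.5 CPM in males (median 1.36, n = 16) and at 0.0237 to 1.24 CPM in females (median 0.497, n = 22). Of the 16 males, 8 lay above every female and 13 above the female median. The log2 fold change was 2.74 ± 0.53 (adjusted p = 0.00516, edgeR). KCNJ3 was at 0 to 13.2 CPM in males (median 0.471) and at 0 to 1.57 CPM in females (median 0.158), with overlap between the groups and 4 males above every female. Its log2 fold change was 2.78 ± 0.64 (adjusted p = 0.0449, edgeR).

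Both calls depended on the male 549. Without it the log2 fold change was 1.45 ± 0.36 for CACNA2D3 (adjusted p = 0.113, edgeR) and 1.92 ± 0.65 for KCNJ3 (adjusted p = 0.497, edgeR), and 0 channel genes were called by edgeR, with 13 of 88 at an unadjusted p under 0.05. The direction was the same within each year. In earlier RNA, CACNA2D3 had medians of 1.07 CPM in males and 0.480 CPM in females, and in later RNA these were 2.24 and 0.557 CPM. KCNJ3 had medians of 0.474 and 0.191 CPM in the earlier RNA and of 0.469 and 0.125 CPM in the later RNA. Within single years neither gene passed the threshold (adjusted p = 0.163 and 0.171 for CACNA2D3 and 0.2995 and 0.660 for KCNJ3, edgeR). Summed atrial markers had medians of 1041 CPM in males and 321 CPM in females, and 1 of 7 atrial markers tested, BMP10, was called higher in males, a call that rested on 549 (0 of 7 without it by edgeR). KCNA5 was at 3.70 to 16.96 CPM in males (median 8.74) and at 1.21 to 11.9 CPM in females (median 4.45), but did not pass the threshold (log2 fold change 0.85 ± 0.23, adjusted p = 0.133, edgeR). It did pass by DESeq2 (adjusted p = 0.0439). The effect of sex was not found to differ between extraction years for any channel gene by an edgeR interaction term, with 8 of 92 at an unadjusted p under 0.05. The same held for age, with 3 of 105. The share of all genes at an unadjusted p under 0.05 was not computed, so none can be set beside these counts.

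Age at death gave 0 calls among 92 channel genes by edgeR, against 0% of 16309 genes, and 9 channel genes had an unadjusted p under 0.05. DESeq2 also called 0 channel genes, with 15 of 133 at an unadjusted p under 0.05. Here too the share of all genes at that level was not computed. The smallest p was that of HCN2, with a slope of -0.59 ± 0.21 log2 units per 10 years (adjusted p = 0.657, edgeR). CACNB2 (0.21 ± 0.10) and KCNJ8 (0.15 ± 0.06) had positive slopes and the same adjusted p. In simulated data of the same animals, 155 of 200 genes with a slope of 0.5 per 10 years were found. Slopes of that size and smaller ones may thus have gone undetected. The 200 were drawn from all genes that passed the filter, whose median dispersion was -0.12 against 0.55 for channel genes. How many such slopes would be found among channel genes was not tested.

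Channel genes known from a given cell type were set against that cell type's markers over the 38 animals, as log2(CPM + 0.5) of the gene against the mean over the list. Of 21 pairs, 6 passed the threshold by both Pearson's r and Spearman's rho (100000 permutations, two-sided, adjusted over the 21 pairs), and all 6 were positive. KCNMB1 followed smooth muscle markers with r = 0.71 and rho = 0.72 (both unadjusted permutation p = 1e-05, the smallest they can give, adjusted p = 0.000105). It had r = 0.72 without the 2 animals farthest from the median of the markers, r = 0.67 within earlier RNA and r = 0.73 within later RNA. CACNA1H followed the same list with r = 0.63 and rho = 0.58 (permutation p = 2e-05 and 0.00012, adjusted p = 0.00014 and 0.000504), and r was 0.67 without the 2 farthest animals, 0.71 within earlier RNA and 0.73 within later RNA.

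KCNE1 followed ventricular markers with r = 0.60 and rho = 0.68 (both unadjusted permutation p = 1e-05, adjusted p = 0.000105), and r was 0.75 without 549 and Little_R, 0.63 within earlier RNA and 0.77 within later RNA. KCNN4, a calcium-activated channel of lymphocytes and red cells, followed leukocyte markers with r = 0.48 and rho = 0.61 (permutation p = 0.00251 and 7e-05, adjusted p = 0.00878 and 0.000367). Without the 2 farthest animals r was 0.50, and it was 0.68 within earlier RNA and 0.55 within later RNA. KCNJ2 followed ventricular markers with r = 0.50 and rho = 0.40 (permutation p = 0.0018 and 0.0144, adjusted p = 0.00853 and 0.0377), and r was 0.43 without 549 and Little_R. The call by rank ended without 549 (rho = 0.36, permutation test, adjusted p = 0.0594) and without 537 and Little_R (rho = 0.31, permutation test, adjusted p = 0.183). Within earlier RNA it had r = 0.69 and rho = 0.12, but r was -0.13 there without 549, and within later RNA it had r = 0.48 and rho = 0.51. SCN7A followed Schwann cell markers with r = 0.48 and rho = 0.41 (permutation p = 0.00203 and 0.0103, adjusted p = 0.00853 and 0.031), but r was 0.32 without 537 and 4x0025, so part of this relation rested on those animals. Within years it was 0.45 and 0.49.

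CACNA1C and KCNQ1 had r of 0.43 and 0.28 with ventricular markers, and did not pass by both measures while 549 was included (permutation test, adjusted p = 0.0528 and 0.113). By rank, CACNA1C did pass, with rho = 0.63 over all animals and rho = 0.57 without 537 and Little_R (permutation test, adjusted p = 0.00035 and 0.00215). Without 549, r was 0.78 and 0.80 for the 2 genes, and rho was 0.63 and 0.48. Without 537 and Little_R but with 549, r was 0.21 and -0.05. The rho of KCNQ1 was then 0.28 (permutation test, adjusted p = 0.218). In 549 the ventricular markers were at their lowest, while CACNA1C (104 CPM) was near its median and KCNQ1 (99.3 CPM) near the top of its range. Within later RNA, which holds Little_R and 537, r was 0.82 and 0.84. Within earlier RNA it was 0.16 and -0.30 with 549 and 0.24 and 0.38 without it, and a difference between the years was not tested. None of the 6 atrial genes passed with atrial markers. KCNK3 had r = 0.41 and rho = -0.22 (permutation p = 0.0299 and 0.181, adjusted p = 0.0627 and 0.271), and r = -0.20 without 549 and 4x0519. KCNJ3, with r = 0.49 and rho = 0.04 (permutation p = 0.0192 and 0.796, adjusted p = 0.0528 and 0.836), likewise fell to r = -0.08, so the pooled r of these genes rested on 549. KCNJ8 did not follow pericyte markers (r = -0.12, permutation p = 0.492, adjusted p = 0.543), nor KCNAB2 leukocyte markers (r = 0.01, permutation p = 0.958).

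**Figure D5:**
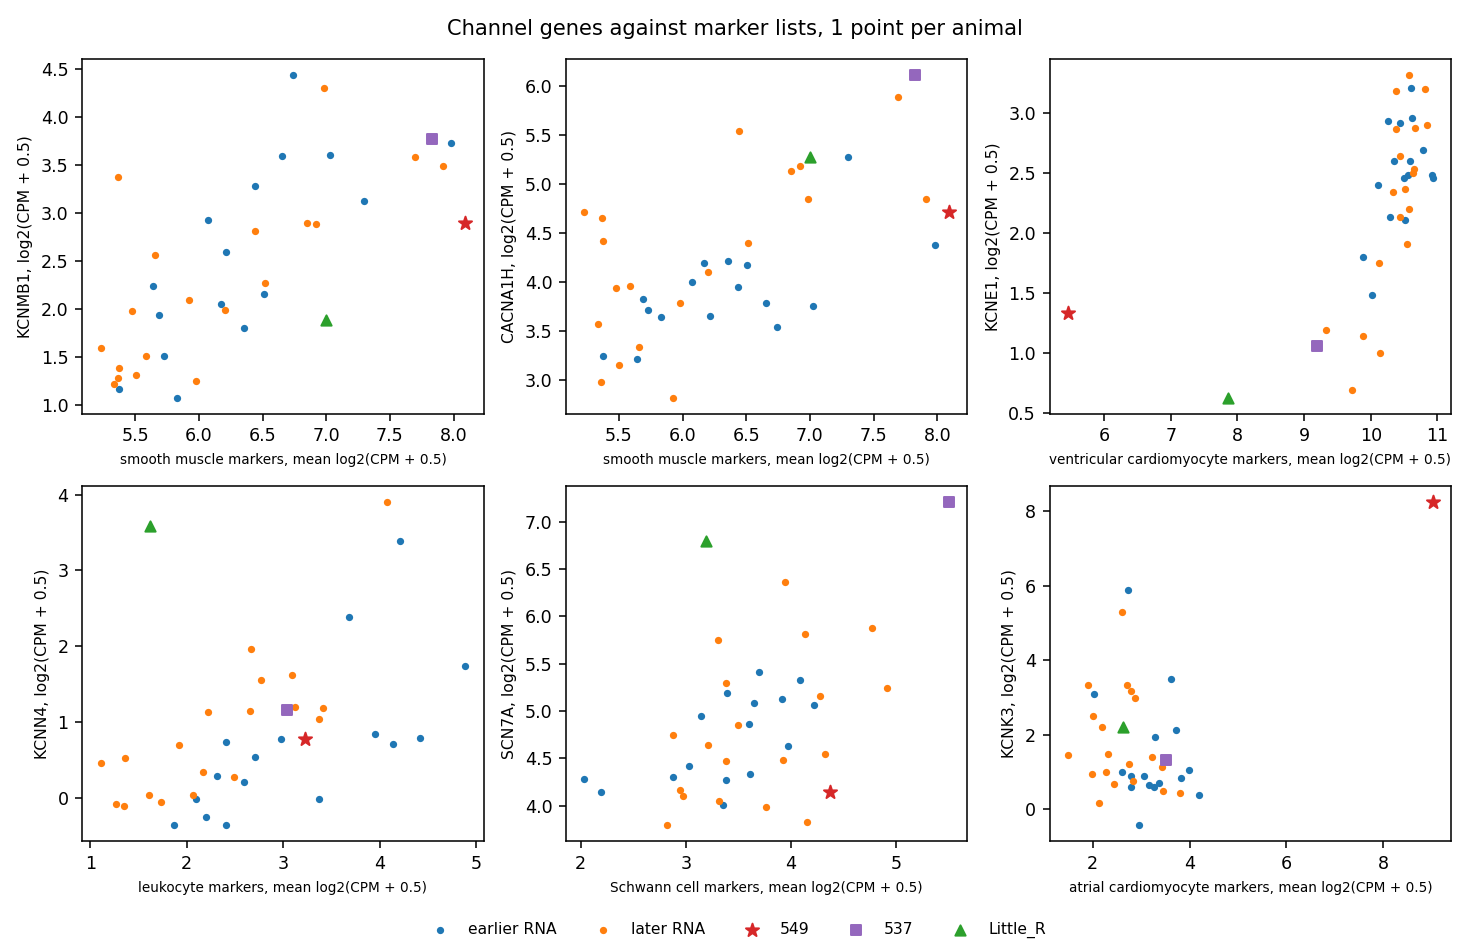
Level of 6 channel genes (y axes) against the mean of a marker list (x axes), both as log2(CPM + 0.5), with 1 point per animal. KCNMB1 and CACNA1H increase with smooth muscle markers over the whole range, while KCNK3 and the atrial markers share only the high point of 549.

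Genes that act on these channels were read from a list of 30 partners, and all were in the table. Between extraction years, 29 were tested and 2 were higher in later RNA, against 11.2% of all genes. ABCC8, the sulfonylurea receptor, was at 4.997 to 56.0 CPM with a median of 12.6 CPM (log2 fold change 0.91 ± 0.21, adjusted p = 0.00279, edgeR). TRPM4, a calcium-activated cation channel, was at 46.7 to 417 CPM with a median of 78.1 CPM (1.04 ± 0.21, adjusted p = 0.000695, edgeR). Both genes were highest in 4X0354 (later RNA), which held the highest level of 10.7% of all genes that passed the filter. The comparison was not run without that animal. None was called with sex or age by edgeR. An unadjusted p under 0.05 was found for 1 and 3 of 29, and the share of all genes at that level was not computed. Dispersion was above 0 for 14 of 27 partners with a value, near the 44.9% of all genes, with a median of 0.31. Among the higher values were those of LRRC10, a cardiomyocyte protein that binds the L-type channel (1.85), RRAD, an inhibitor of calcium channels (1.499), and the anchoring protein ANK2 (1.44). RANGRF, which helps to bring sodium channels to the membrane, was among the lower ones (-1.54).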

How the data were processed

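The authors captured polyadenylated RNA of chimpanzee hearts, aligned single-end reads with STAR to Pan_tro_3.0 and deposited 2 count tables. The gene table holds the count per annotated gene from STAR. The other holds the count per gene from featureCounts 1.6.3 over human and chimpanzee orthologous exons. Both counts were used as deposited. The sources used here do not say whether gene counts used strand. A deposited matrix of quantile-normalized values and the human table were not used here, nor were 52 columns of per-sample values whose names match none of the samples here.

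Symbols came from a reference table of gene identifiers (18040 of 31373 matched). The 17 channel genes of the exon table were matched through identifier lists of the published supplement, of which no value was used. Members, gene lists and marker lists were chosen with earlier results of these data known. The series holds no sequence file for these genes here, so none is shown.

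CPM is the gene count scaled by the total on orthologous exons. Overdispersion was fitted by maximum likelihood for genes reaching 6 CPM in any animal, with a LOESS trend (degree 1, span 0.75) and standard errors from 1000 redrawn sets of animals. Comparisons used edgeR 4.0.16 (TMM, filterByExpr, quasi-likelihood test) on counts of all genes with extraction year and sex as terms, and age per 10 years in addition for the 34 animals with an age. DESeq2 1.42.0 was an alternative. Python 3.11.15 and R 4.3.3 were used. In simulated data of the same animals, 150 of 200 genes changed 2-fold were found for extraction year (8 of 12888 unchanged genes called) and 143 of 200 for sex (2 of 12890). The changed genes were drawn from all genes that passed the filter, so these shares need not hold for channel genes. Estimated and simulated ln overdispersion had r = 0.980 over 13121 genes.

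Some genes that these rules name are not reported here. Named are genes of a list of cardiac channel genes, the 5 highest and 5 lowest in dispersion, up to 10 called genes in each direction and comparison, the genes of the marker pairs, and partner genes past the threshold; single partners towards the ends of the dispersion range, and genes highest or lowest in an animal, were chosen after their values were seen. P-values measure the spread between animals, some of which were related.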

Additional observations from a re-analysis of the deposited data

How the results depend on the processing

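Dispersion above 0 was found for 41 to 49 channel genes in the alternatives on the gene table, where 52 to 63 had a value. This was 73.2% to 86.0% of them, against 43.3% to 46.8% of all genes. Leaving out each animal in turn gave 43 to 50 of 63 (43 without 549). On orthologous exons, where 16 channel genes had a value, 11 were above 0, against 45.5% of all genes. For extraction year the count of 9 of 88 (16.1% of all genes) became 16 of 124 with DESeq2 (19.1% of all genes). It was 14 of 133 without a filter on low counts (13.8%) and 5 of 87 without 537 and Little_R (13.4%). Among animals of the Yerkes center it was 2 of 90 (2.08%), and on orthologous exons 2 of 16 (20.5%). For sex the count of 2 of 88 (0.215% of all genes) became 3 of 112 with DESeq2 (0.598%) and 1 of 91 with scaling by the orthologous exon total (0.206%). It was 1 of 83 within earlier RNA (0.157%), 0 of 85 within later RNA (0.13%) and 0 of 88 without 549 (0.145%). For age, edgeR and DESeq2 called 0 in the 8 alternatives. For marker lists the 6 pairs became 2 within earlier RNA, 3 within earlier RNA without 549, and 11 within later RNA, where fewer animals were used. The correlation had another sign in at least 1 alternative for 12 of the 21 pairs, most of them not past the threshold on either side, such as HCN4 with atrial markers (r = 0.34 over all animals, -0.38 within later RNA), CACNA1G (0.18, and -0.34 without 549) and KCNJ11 with ventricular markers (0.23, and -0.30 within earlier RNA). For pairs past it on one side it turned for KCNJ5 with atrial markers within later RNA (r = -0.59, 0.25 over all animals) and for KCNIP2 with ventricular markers within later RNA (0.50) and without 549 (0.40, against -0.04), and for KCNJ2 with ventricular markers within earlier RNA without 549 (-0.13, against 0.50), and the cause was not tested. For the called genes of extraction year and sex, 60 alternative values kept the call and 20 lost it in the same direction. Single correlations with marker lists gained the threshold in 11 alternative values and lost it in 10. Dispersion of single named genes moved by more than 1 standard error in 59 alternative values and by less in 271. The counts of 63 expressed genes stayed within 1.5 times the main value in the 5 alternatives run. Alternatives without 549 were chosen after seeing the data. No paired analysis was possible because the labels give no replicate numbers shared between groups. Depth limits genes under 1 CPM, where the lowest total gives at most 14.4 counts.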

Other observations

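Subunits of the same channel complex were compared over the 38 animals as log2(CPM + 0.5), in 11 pairs chosen after levels were seen. CACNA1C and CACNA2D1, pore and auxiliary subunit of the L-type channel, were most closely related, with r = 0.79 and rho = 0.74 (both unadjusted permutation p = 1e-05, the smallest they can give, adjusted p = 0.00011), and r was 0.79 without Little_R and 537, 0.55 within earlier RNA and 0.82 within later RNA. KCNMA1 and KCNMB1, the smooth muscle pair, had r = 0.55 and rho = 0.54 (permutation p = 0.00034 and 0.00052, adjusted p = 0.000935 and 0.00286), and r was 0.48 without 537 and 522, 0.46 within earlier RNA and 0.65 within later RNA. CACNA1C and CACNB2 had r = 0.47 (permutation p = 0.00241, adjusted p = 0.00442) and rho = 0.41, but r was 0.24 without Little_R and 537, so that this relation rested on those animals. KCND3 and KCNIP2 had r = 0.37 and rho = 0.43 (permutation p = 0.0205 and 0.00684, adjusted p = 0.0322 and 0.0188) and r = 0.25 without 4X0354 and 537. KCNJ11 and its partner gene ABCC9 had r = -0.06 (permutation p = 0.71). KCNJ8 and ABCC9 had r = 0.36 and rho = 0.30 (permutation p = 0.026 and 0.0654, adjusted p = 0.0357 and 0.103). For this pair r was 0.27 without 529 and 549.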
